A study of Caenorhabditis elegans with 5 samples.

Results

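In poly(A) RNA of *C. elegans*, 31 gene models outside the authors' sperm class were higher in the *set-32* mutant library than in every other library. The whole table held 20911 models, of which 9312 could have passed. The 31 were chosen on these values themselves. A model had to reach 5 RPKM (reads per kilobase of model, scaled to library depth) in *set-32*, and its RPKM plus 1 had to be at least 2 times that of each other library. Models that the authors class as sperm-expressed or list as targets of germline nuclear RNAi were left out, together with symbols starting with msp, ssp, nspd or clec. The height of these genes in *set-32* is therefore a description and not a finding.

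SET-32 is a SET-domain protein that acts in germline nuclear RNAi, in which small RNAs silence genes in the nucleus. HRDE-1 is the Argonaute protein that carries these small RNAs in the germline. The study names SET-32, like MET-2 and SET-25, as a methyltransferase that places repressive methyl marks on histone H3. Whole adult hermaphrodites hold sperm, oocytes, embryos and somatic tissue, so their RNA is a mixture of all of these.

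The study compared 5 genotypes with 1 mRNA library each: wild type (N2), *set-32*(ok1457), the double mutant *met-2*(n4256) *set-25*(ok5021), a triple mutant that adds *set-32*(ok1457) to the double mutant, and *hrde-1*(tm1200). All were synchronized young adult hermaphrodites grown on OP50 bacteria at 19 °C and taken whole. The triple mutant carries the same *set-32* allele as the single mutant, so a gene higher only in *set-32* is by rule lower in a second library that carries it. With 1 library per genotype there was no replicate error, no test was possible, and a difference between libraries cannot be told apart from a difference between the cultures they came from.

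The RPKM of a single read in a 1-kb model was 0.343 to 0.545 in the 5 libraries, as estimated from the steps between low values, so that 5 RPKM stood for 9.17 to 14.6 reads per kilobase. The targeted genes were still listed in their own mutants. *set-32* stood at 8.15 RPKM in its single mutant against 12.5 in wild type, 12.3 and 5.65 in the double and triple mutants and 14.5 in *hrde-1*. *met-2* was 47.3 RPKM in wild type against 12.6 and 9.45 in the double and triple mutants, *set-25* was 17.5 against 10.3 and 8.64, and *hrde-1* was 228 in wild type against 160 in its own mutant. The RPKM cover whole gene models, and reads from outside any deleted part were not separated here.

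The *set-32* library also held more RNA of sperm genes. The genes that the authors class as sperm-expressed (546 with a mean of at least 1 RPKM) summed to 7959 RPKM in *set-32* against 4505 in wild type, 5215 and 4849 in the double and triple mutants and 3505 in *hrde-1*, and 53.3% of them were highest in *set-32*. Of all models that passed the exclusions, 19.3% were highest there. The authors' oocyte class summed to 40273 RPKM in *set-32* against 48786 in wild type, 47576 and 41234 in the double and triple mutants and 49411 in *hrde-1*, so that both libraries with the *set-32* allele were low. In *set-32*, 2.90% of its models were at their highest. In whole animals, more cells of a type and more RNA per cell cannot be told apart. The part that this difference in sperm RNA had in the genes described here was not tested.

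**Figure D1:**
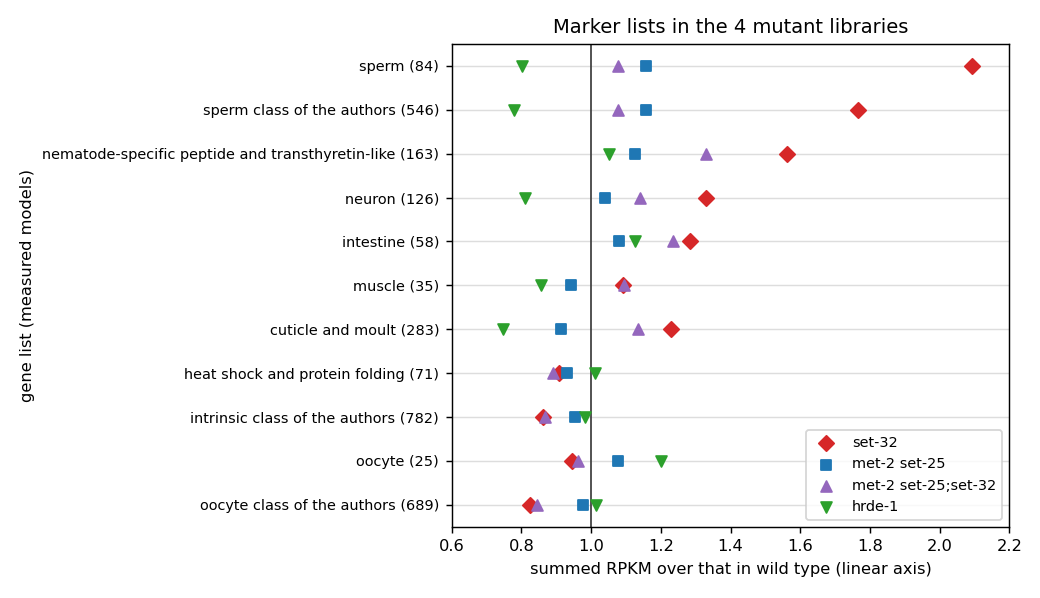
Summed RPKM of each gene list in each mutant library divided by that in wild type (linear horizontal axis, 1 library per genotype; the number of measured models is in brackets; the vertical line marks wild type). The *set-32* points of both sperm lists lie at 2.09 and 1.77, right of the other mutants, while those of the authors' oocyte and intrinsic classes lie at 0.83 and 0.86.

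The same rule was applied with each library in turn as the high one, which gives the background for the number 31. After the exclusions, *set-32* had 31 such models (0.333% of 9312 that could have passed), wild type 16 (0.175% of 9136), the double mutant 22 (0.235% of 9374), the triple mutant 27 (0.288% of 9385) and *hrde-1* 37 (0.41% of 9016). The number in *set-32* was thus within the span of the other libraries and below that of *hrde-1*. Before the exclusions it was 45, against 16, 24, 28 and 79. Of the 14 models left out in *set-32*, 11 were in the sperm class and 3 were *nspd-3*, *nspd-7* and *ssp-35*, which the authors do not class as sperm. None of the 14 was a listed nuclear RNAi target. At 4-fold, 5 models remained in *set-32*, 2 in wild type, 0 and 1 in the double and triple mutants and 8 in *hrde-1*. The number also depends on how many libraries are compared. It was 50 without wild type, 49 without the double mutant, 63 without the triple mutant and 58 without *hrde-1*.

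**Figure D2:**
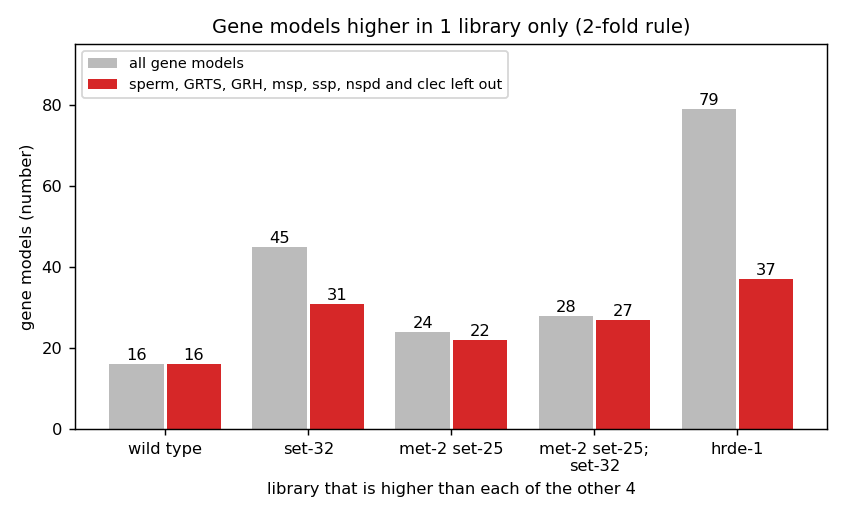
Number of gene models higher in 1 library than in each of the other 4 (at least 5 RPKM and at least 2 times on the RPKM + 1 scale), before (grey) and after (red) the exclusions. The red bar of *set-32* stands at 31, between 27 for the triple mutant and 37 for *hrde-1*.

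The 31 genes were mostly of low abundance. Their median was 12.03 RPKM in *set-32*, against 2.56 in wild type, 2.12 and 3.92 in the double and triple mutants and 1.57 in *hrde-1*, while all models that could have passed had a median of 28.6 RPKM in *set-32*. Of the 31, 12 (38.7%) were under 10 RPKM in *set-32*, against 17.9% of the models that could have passed. Only *spex-3*, *grsp-1*, T22B7.7 and *nspc-10* reached 50 RPKM. A length was found for 30 of the genes. These 30 had a median of 14.3 estimated reads in *set-32*, with a range from 1.40 to 225, and 11 rested on fewer than 10 reads. For each ratio a 95% interval was computed from both estimated read numbers (Clopper-Pearson). It shows the counting precision of the values that chose the genes, takes no account of that choice, and is no evidence that a gene was higher.

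**Figure D3:**
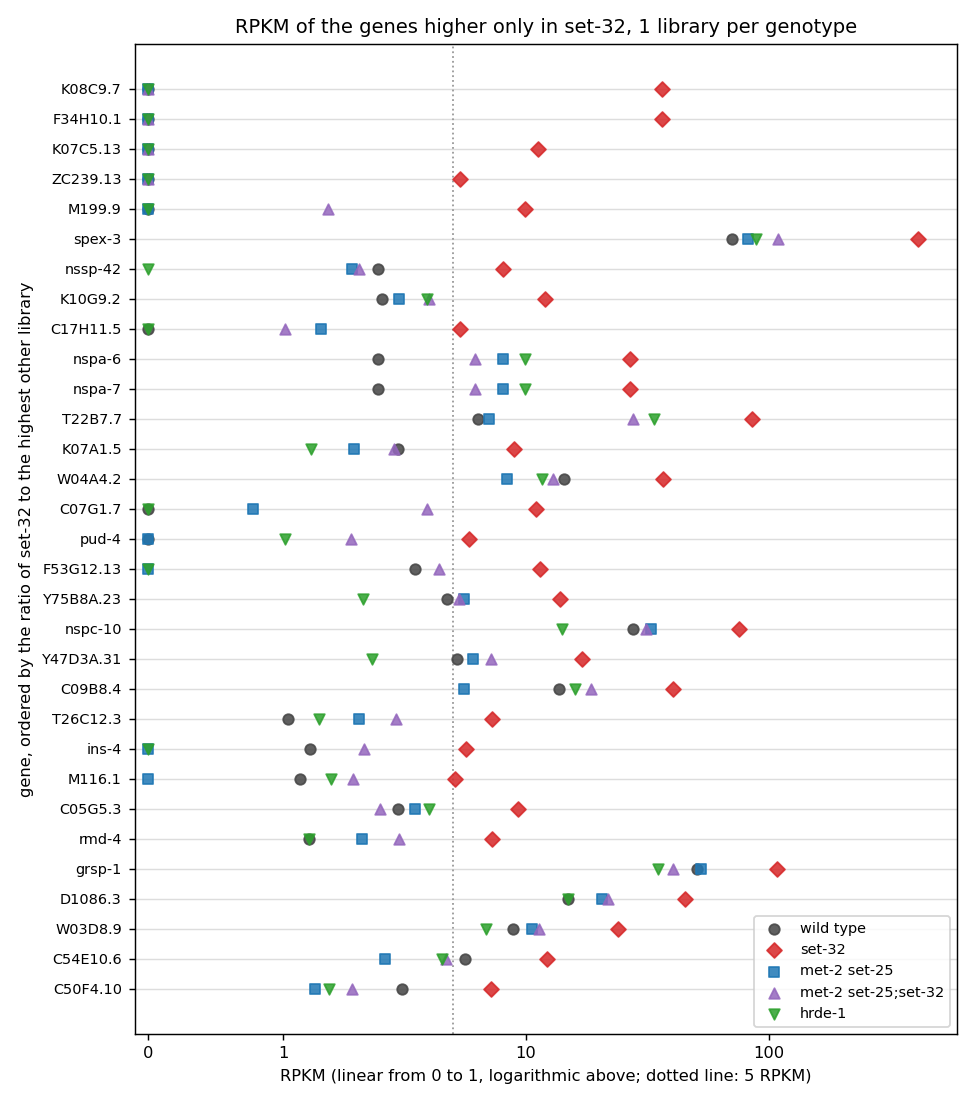
RPKM of each of the 31 genes in the 5 libraries (horizontal axis linear from 0 to 1 and logarithmic above), ordered by the ratio of *set-32* to the highest other library on the RPKM + 1 scale. The red diamonds of *set-32* run from 5.12 (M116.1) to 413 RPKM (*spex-3*), and 4 genes at the top are listed at 0 in all other libraries.

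*spex-3* was by far the most abundant of the 31. It lies on chromosome III (positions 1701712 to 1702437 of WBcel235, minus strand) and had 413 RPKM in *set-32* against 70.4 in wild type, 82.5 and 109 in the double and triple mutants and 88.5 in *hrde-1*. The 4 other libraries stayed within a narrow span and *set-32* stood alone above them. Its ratio of RPKM was 5.87 over wild type (95% interval 4.04 to 8.52), 5.01 over the double mutant (3.44 to 7.26), 3.79 over the triple mutant (2.83 to 5.07) and 4.67 over *hrde-1* (3.18 to 6.84), from about 190.4 reads in *set-32*. It made up the largest share of the summed RPKM of the 31, which was 1131 in *set-32*. The related *spex-2* had 0 RPKM in both wild type and *set-32*, 3.44 and 2.46 in the double and triple mutants and 2.63 in *hrde-1*.

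T22B7.7, on the X chromosome (5651865 to 5654074, minus strand), had the most estimated reads, about 225 in *set-32*. Its levels were 85.8 RPKM in *set-32* against 6.35 in wild type, 7.08 and 27.5 in the double and triple mutants and 33.7 in *hrde-1*. Wild type and the double mutant were thus low, the triple mutant and *hrde-1* intermediate, and *set-32* highest. The ratio was 13.5 over wild type (8.49 to 23.6), 12.12 over the double mutant (7.56 to 21.6), 3.12 over the triple mutant (2.43 to 3.98) and 2.55 over *hrde-1* (1.94 to 3.35). Apart from *nspa-6* and *nspa-7*, it was the only one of the 31 with at least 5 RPKM in both the triple mutant and *hrde-1* and at least 2-fold over wild type in each. Its neighbour T22B7.3 was also lowest in wild type, with 0.44 RPKM, and highest in *set-32*, with 6.76.

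Several of the genes belong to families of short nematode-specific or secreted peptides. *grsp-1*, which encodes a glycine-rich secreted protein, had 109 RPKM in *set-32* against 50.96 in wild type, 52.6 and 40.3 in the double and triple mutants and 35.1 in *hrde-1*. Its ratio was 2.13 over wild type (1.60 to 2.88), the nearest to 2 among the 4 abundant genes. Of the 4 grsp genes measured, *grsp-1* was the only one at least 2-fold over wild type in *set-32*, and 3 were highest there. *nssp-42* had 8.09 RPKM in *set-32* against at most 2.46 elsewhere, on about 8.4 reads. Of the 61 nssp models measured, 18 were highest in *set-32*, where 19.3% of all models were. The families were set side by side after the values had been seen, and models of 1 family can share reads.

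*nspc-10* encodes a peptide of the nematode-specific peptide family, group C. It had 75.4 RPKM in *set-32* against 27.7 in wild type, 32.9 and 31.2 in the double and triple mutants and 14.04 in *hrde-1*, and its ratio was 2.72 over wild type (1.58 to 4.67). It was the only nspc gene to pass the rule, yet all 18 nspc models (17 with distinct values) were highest in *set-32*. Of the 18, 10 were at least 2-fold over wild type on the RPKM + 1 scale, where 4.56% of all models with a mean of 1 RPKM or more were, and 19.3% of these were highest in *set-32*. Their summed RPKM was 893 in *set-32* against 427 in wild type, 466 and 473 in the double and triple mutants and 381 in *hrde-1*. All 18 lie on the X chromosome and none is in the authors' sperm class. The ratio to the highest other library ran from 1.09 for *nspc-18* to 2.25 for *nspc-10*, so that 2-fold separated 1 model from a family that was higher as a whole. The adjacent *nspc-9* had 88.1 RPKM in *set-32* and 42.01 in wild type.

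*pud-4* belongs to a small family named for proteins that are more abundant when insulin-like signalling through DAF-2 is reduced. It was at 0 in wild type and the double mutant, 5.84 RPKM in *set-32*, 1.91 and 1.02 in the triple mutant and *hrde-1*, on about 5.8 reads, and its intervals against the triple mutant (0.702 to 39.8) and *hrde-1* (0.600 to 227) were wide. All 7 pud models were highest in *set-32*, against 19.3% of the models that passed the exclusions, and lie in 1 cluster on chromosome V. They belong to 6 genes, since *pud-3* has 2 models, and *pud-1.1* and *pud-1.2* were listed with the same values. Of the 7 models, 6 were at least 2-fold over wild type, against the same 4.56% of all models. The family summed to 276 RPKM in *set-32* against 85.4 in wild type, 65.7 and 108 in the double and triple mutants and 161 in *hrde-1*. Most of this came from other members than *pud-4*. *pud-2.1*, its neighbour, had 65.7 RPKM in *set-32* against 21.6 in wild type, 15.1 and 22.9 in the double and triple mutants and 43.1 in *hrde-1*.

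*nspa-6* and *nspa-7* are 2 members of nematode-specific peptide family group A on chromosome V that were listed with the same values, 26.97 RPKM in *set-32* against 2.46 in wild type, 8.08 and 6.17 in the double and triple mutants and 9.91 in *hrde-1*. Since a read with several alignments was divided among its sites, they count as 1 measurement. It rested on about 6.1 reads for each copy in *set-32*, and its interval over wild type ran from 0.799 to 303. Of 8 nspa models measured, 6 were highest in *set-32* (5 of the 7 with distinct values). There, 19.3% of the models that passed the exclusions and 53.3% of the authors' sperm class were highest. In that class are 4 of the 8, although *nspa-6* and *nspa-7* are not. The family summed to 279 RPKM in *set-32* against 129 in wild type, 180.2 and 142 in the double and triple mutants and 220.4 in *hrde-1*.

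**Figure D4:**
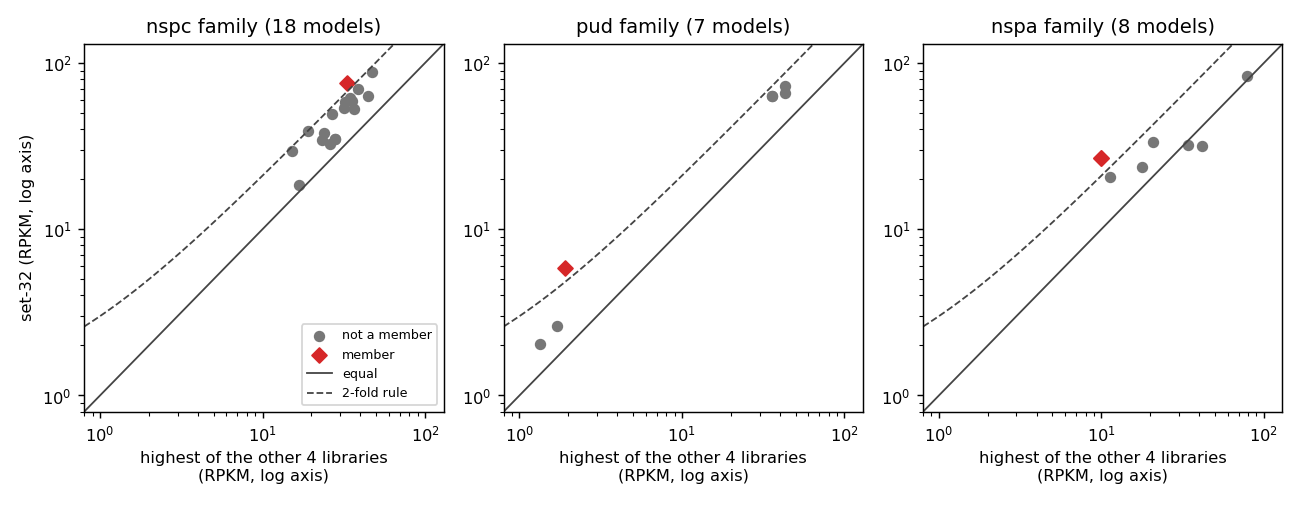
RPKM in *set-32* against the highest of the other 4 libraries (both axes logarithmic) for each measured model of the nspc, pud and nspa families; red diamonds passed the rule, grey points did not, the solid line marks equal values and the dashed line the 2-fold rule. All 18 nspc and all 7 pud points lie above the solid line, and 1 point of each family lies above the dashed line (2 models at the same values in nspa).

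Among all lists of genes set beside the 31, the list of nematode-specific peptides and transthyretin-like proteins held 5 of them (*grsp-1*, *nspa-6*, *nspa-7*, *nspc-10* and *nssp-42*). These are 16.1% of the 31, while the list made up 104 (1.12%) of the 9312 models that could have passed. After the exclusions, 31 of its 108 models tested (28.7%) were at least 2-fold higher in *set-32* than in wild type and 3 were lower, where 3.28% of all models tested were higher and 2.14% lower. Of its 158 measured models, 44.9% were highest in *set-32*, where 19.3% of all models were. Its median log2 ratio over wild type was 0.55. These counts include the 5 genes chosen for being higher and share the *set-32* library with the rule. The neuron list held *ins-4*, an insulin-like peptide gene, which had 5.65 RPKM in *set-32* against 1.29 in wild type, 0 and 2.15 in the double and triple mutants and 0 in *hrde-1*. This rested on about 4.0 reads, and the interval over wild type was 0.435 to 216. Of the 21 ins genes measured, 8 were highest in *set-32*, where 19.3% of all models were, and the median ratio of *set-32* to the highest other library was 0.85 in this family. The oocyte, embryo, male, cuticle, intestine, muscle, heat shock, stress, detoxification, immunity, F-box, chemoreceptor, histone, kinase and small-RNA lists held none of the 31. Each of these lists made up only 0.0107% (male, 1 model) to 2.06% (detoxification, 192 models) of the 9312. Holding none of the 31 is near such shares and says little about these lists. In the heat shock list, 3 of 68 models (4.41%) stood at least 2-fold over wild type in *set-32* and 0 under it, near the 3.28% of all models. Other lists stood further from that share. In the neuron list 14 of 78 models (17.9%) were higher and 2 lower, and in the immunity list 12 of 93 (12.9%) and 11. In the cuticle list 7 of 177 models (3.95%) were higher and 43 lower, where 2.14% of all models tested were lower. The histone list had 0 of 59 higher and 6 lower. The intestine list had 3 of 54 (5.56%) higher and 3 lower, and 37.9% of its 58 measured models were highest in *set-32*. The sum of the heat shock list was 11056 RPKM in *set-32* against 12193 in wild type, and its median log2 ratio was -0.10. It summed to 11358 and 10848 RPKM in the double and triple mutants and 12342 in *hrde-1*. The 3 measured male genes summed to 11.4 RPKM in *set-32* against 5.09 in wild type, 6.91 and 8.09 in the double and triple mutants and 6.35 in *hrde-1*. Only 1 of these genes reached 5 RPKM in *set-32* or wild type.

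There were 4 genes listed at 0 in all 4 other libraries. K08C9.7, an annotated pseudogene on chromosome I (11495521 to 11496245, minus strand), had 36.6 RPKM in *set-32*, or about 38.4 reads. With a floor of 3 reads per library, this was 14.1 times the floor in wild type and 11.98 times that in the double mutant. It was 16.8 times the floor in the triple mutant and 10.6 times that in *hrde-1*. The lower ends of its intervals over these libraries were smaller, at 10.8, 9.18, 12.8 and 8.08 in the same order. F34H10.1, which overlaps or directly adjoins C11E4.8 on the X chromosome, had 36.4 RPKM on about 15.3 reads. This was 5.61 times the floor in wild type, and the lower end of its interval was 3.94. C11E4.8 itself is listed at 0 in all 5 libraries. K07C5.13 (11.2 RPKM) and ZC239.13 (5.37 RPKM) rested on fewer reads, 1.9 to 6.4 and 1.4 to 3.0 in *set-32* over their annotated lengths. At the shorter lengths a difference from 0 was not detectable at this depth. No interval was computed at the longer lengths, where ZC239.13 still stood at about the floor of 3 reads.

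M199.9 and C07G1.7 were nearly as restricted. M199.9 had 9.94 RPKM in *set-32*, 1.53 in the triple mutant and 0 elsewhere, on about 5.0 reads. C07G1.7 had 11 RPKM in *set-32*, 3.92 in the triple mutant, 0.78 in the double mutant and 0 in wild type and *hrde-1*. For both genes the library next below *set-32* was the triple mutant. The *set-32* value of C07G1.7 was 5.51 times the floor of 3 reads in wild type, and the lower end of its interval was 3.94. It was 2.81-fold higher than the triple mutant (1.08 to 8.13). C17H11.5 was also at 0 in wild type and *hrde-1*, with 5.35 RPKM in *set-32*, 1.43 in the double mutant and 1.02 in the triple mutant on about 5.8 reads.

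Of the genes known by a sequence name, W04A4.2, C09B8.4, D1086.3 and W03D8.9 had 51.1 to 89.6 estimated reads in *set-32*. W04A4.2 had 36.7 RPKM in *set-32* against 14.3 in wild type, 8.38 and 12.9 in the double and triple mutants and 11.6 in *hrde-1*, and its ratio was 2.56 over wild type (1.76 to 3.91). C09B8.4 had 40.5 RPKM in *set-32* against 13.7 in wild type, 5.55 and 18.6 in the double and triple mutants and 15.9 in *hrde-1*. Among the genes with at least 5 RPKM in wild type, it was the only one at least 2-fold lower in the double mutant on the RPKM + 1 scale. C54E10.6, with 5.61 and 2.63 RPKM, was over 2-fold lower only as a ratio of plain RPKM. D1086.3 had 14.9, 45.4, 20.6, 21.8 and 14.97 RPKM in wild type, *set-32*, the double mutant, the triple mutant and *hrde-1*, with a ratio of 3.05 over wild type (1.85 to 5.34) and 2.09 over the triple mutant (1.36 to 3.24). W03D8.9 was the weakest of these, with 24.0 RPKM in *set-32* and 11.4 in the triple mutant.

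K10G9.2, K07A1.5 and Y47D3A.31 had 17.7 to 22.3 estimated reads. K10G9.2 had 12.03 RPKM in *set-32* and 2.56 to 3.98 elsewhere. K07A1.5 had 8.94 RPKM in *set-32* and 1.30 to 2.99 elsewhere. It was the only one of the 31 within 1 Mb of *set-32* itself, 71.3 kb away on chromosome I. Y47D3A.31 had 17.04 RPKM in *set-32* and 2.32 to 7.22 elsewhere. It overlaps or directly adjoins *cku-70*, a DNA repair gene, on the opposite strand. *cku-70* had 41.2 RPKM in wild type and 37.3 in *set-32*. Whether counting used strand is not given in the sources used here, so reads of the 2 genes may not be told apart.

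The other genes were lower or nearer to 2-fold. *rmd-4*, an annotated pseudogene, had 7.23 RPKM in *set-32* and 1.28 to 3.02 elsewhere. Y75B8A.23, T26C12.3, M116.1 and C05G5.3 had 13.9, 7.28, 5.12 and 9.27 RPKM in *set-32*, and their highest other values were 5.57, 2.92, 1.95 and 4.00. F53G12.13, with 11.5 RPKM in *set-32* and 4.38 in the triple mutant, had no match in the annotation and no length. The 3 genes just inside the rule were W03D8.9, C54E10.6 and C50F4.10, at 2.02, 2.01 and 2.00 times the highest other library on the RPKM + 1 scale. C54E10.6 had 12.3 RPKM in *set-32* and 5.61 in wild type, and C50F4.10 had 7.19 and 3.09. Just outside were *spe-54* (8.26 RPKM in *set-32* and 3.64 in the double mutant), *nspc-16* (38.9 and 19.1) and Y102E9.5 (9.39, and 4.29 in wild type), at 1.996, 1.98 and 1.96. In all, 28 models lay between 1.8 and 2 times, and 12 of the 31 genes were under 2.2 times.

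Some features of the 31 genes were set beside those of the models that could have passed, which had gone through the same exclusions by sperm class and symbol. None was in the authors' oocyte or intrinsic germline class, against 7.07% and 7.55% of the models that could have passed. Of the 31, 2 (6.45%) are annotated pseudogenes, against 0.698%, and 9 (29.03%) have a gene symbol other than the sequence name, against 66.8%. Their median length was 531 bases against 1071, and 11 of 30 (36.7%) were under 400 bases against 1113 of the 9177 with a length. Short models and low levels both mean few reads, which widens the spread of a ratio. The genes were spread over all 6 chromosomes, with 4 on I, 2 on II, 4 on III, 6 on IV, 8 on V and 6 on X. No gene next to one of the 31 was itself one of them, among 60 neighbours. A gene of the sperm class lay directly on either side of 7 of the 30 with a position (23.3%), against 6.07% of the models that could have passed. These are counts without a test.

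The comparisons between the other 4 libraries did not enter the rule directly, but those with wild type share that library, and the rule bounds the value of every library from above. In the triple mutant against wild type, 13 of the 31 had at least 5 RPKM in 1 of both libraries, of which 3 were at least 2-fold higher (T22B7.7, *nspa-6* and *nspa-7*) and 0 lower, where 3.36% of all models tested were higher and 1.66% lower. The median log2 ratio of the 31 was 0.41, against -0.04 for the models that could have passed, and 20 were above 0, 7 below and 4 at 0. In the double mutant against wild type, 2 of 13 were higher (*nspa-6* and *nspa-7*) and 1 lower (C09B8.4), where 3.04% and 1.52% of all models were. In *hrde-1* against wild type, 3 of 12 were higher, again T22B7.7, *nspa-6* and *nspa-7*, and 0 lower, where 2.02% and 3.27% were. With both nspa genes counted once, 1 to 2 genes were higher in each of these comparisons.

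The triple mutant against the double mutant shows the same *set-32* allele in the *met-2 set-25* background, in 2 libraries that do not include wild type or *set-32*. Of 12 genes with at least 5 RPKM in either, 2 were at least 2-fold higher in the triple mutant (T22B7.7 and C09B8.4) and 0 lower, where 1.88% of all models were higher and 1.67% lower. The median log2 ratio of the 31, most of them under that level in both, was 0.31, against -0.07 for the models that could have passed. It was above 0 for 20 genes, below 0 for 7 and 0 for the 4 listed at 0 in both. The share of all models above 0 was not computed. T22B7.7 had a log2 ratio of 1.82 here and 3.56 for *set-32* over wild type, and C09B8.4 had 1.58 and 1.49. *spex-3*, with 3.79 times as much RNA in *set-32* as in the triple mutant, had a log2 ratio of 0.40 between the triple and double mutants and 2.54 between *set-32* and wild type. The triple mutant was the highest of the other 4 libraries for 14 of the 27 genes with a value above 0 in any of them, wild type for 5, and the double mutant and *hrde-1* for 4 each. Of the 9308 models that could have passed and had such a value, the triple mutant was highest for 21.8%. It was also the deepest library, with 0.343 RPKM for a single read in a 1-kb model against 0.409 to 0.545, and listed 4 of the 31 at 0, against 8 to 10 in the other 3. The part of depth in this was not tested.

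**Figure D5:**
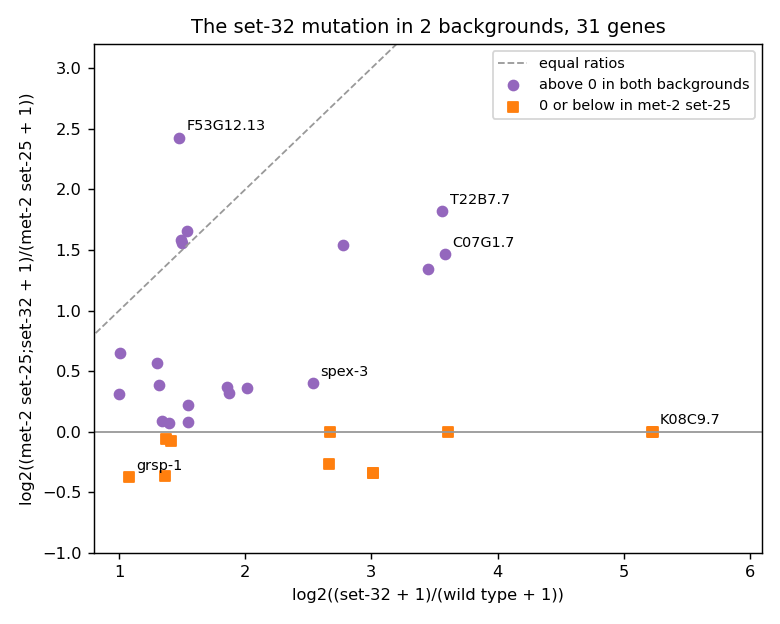
Log2 ratio (RPKM + 1) of the triple over the double mutant (vertical axis) against that of *set-32* over wild type (horizontal axis, fixed above 1 by the rule) for the 31 genes; the dashed line marks equal ratios, and orange squares are genes at or below 0 on the vertical axis. Most points lie below the dashed line, with T22B7.7 at 1.82 and *grsp-1* at -0.38 on the vertical axis.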

How the data were processed

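Per the labels and the study's methods, the authors aligned 50-nt single-end mRNA reads with Bowtie 0.12.7 to WS190, keeping perfect alignments, counted a read with several alignments in fractions and deposited RPKM values per gene model, scaled by library depth. Log2 ratios and the rule were computed here from the deposited RPKM after adding 1, which understates changes of low genes, and ratios with intervals from RPKM alone. No count test was run. Columns were mapped to genotypes through the library names. Models were matched by sequence name to RefSeq symbols and WBcel235 positions (Ensembl release 115) for 20314 models (97.1%). Read numbers were estimated from RPKM steps and annotated lengths; 44.7% to 47.0% of low values were whole within 0.1 (20% by chance), so they are approximate. Values of 0 were set to a floor of 3 reads, and ratios to a floor leave out the counting error of the *set-32* value. Intervals and floors cover counting error only. A model counted as higher or lower in a pair at 2-fold on the RPKM + 1 scale with at least 5 RPKM in the higher library. In lists, a model with a mean of 1 RPKM or more was measured. The shares of 19.3% and 4.56% of all models were taken over measured models that passed the exclusions.

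Members, lists and the rule for named genes were chosen with earlier results of these data known. Named were the 20 highest ratios, genes of at least 50 RPKM, list members, genes within 1 Mb of *set-32* and those next to the threshold; the rest were named so that all 31 are accounted for. Families and neighbouring genes were chosen after their values were seen. The planned promoter motif search was not run, as no promoter sequences were used here. Ratio and interval code was tested on simulated data. Python 3.11.15, pandas 2.3.3, numpy 2.4.6, scipy 1.17.1 and matplotlib 3.10.9 were used.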

Additional observations from a re-analysis of the deposited data

Results flagged for a closer look

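For 7 of the 31 genes the *set-32* mutation went with a higher value over wild type but a lower RPKM in the *met-2 set-25* background, where the triple mutant was below the double mutant. The models that could have passed had a median log2 ratio of -0.07 for the triple over the double mutant, so values below 0 were common among them. The log2 ratio of the triple over the double mutant was -0.38 for *grsp-1*, -0.36 for C05G5.3, -0.34 for both *nspa-6* and *nspa-7*, -0.27 for C17H11.5, -0.08 for *nspc-10* and -0.06 for Y75B8A.23. Estimated reads in the double and triple mutants were 63.5 and 68.1 for *grsp-1*, 20.8 and 27.5 for *nspc-10*, and 3.0 and 4.0 for Y75B8A.23. They were about 4.8 in both for C05G5.3, 1.4 in both for C17H11.5, and 1.7 and 1.8 for each nspa gene. None of these genes thus had clearly fewer estimated reads in the triple mutant. That library was the deepest, so a single read gave a lower RPKM there. With 1 library per genotype the difference between the backgrounds was not tested, and the sign over wild type was fixed by the choice of genes.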

How the results depend on the processing

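The number of models higher only in *set-32* was 31. It was 11 with a pseudocount of 5, 19 with a minimum of 10 RPKM, 93 with no minimum and 6 at 3-fold, and 49 to 63 when 1 other library was left out, each of which by construction asks more or less of a model. All 11, 19 and 6 were among the 31, and the 93 and the leave-out sets held all 31. In wild type (16), the same settings gave 7, 10, 73 and 3, and 20 to 34 with a library left out. In the double mutant (22), a pseudocount of 0.1 gave 37, a pseudocount of 5 gave 6, no minimum 111, 3-fold 3, and leaving out a library 33 to 81. In the triple mutant (27), a pseudocount of 5 gave 5, a minimum of 10 RPKM 16, no minimum 98, 3-fold 3, and leaving out a library 35 to 90. In *hrde-1* (37), a pseudocount of 5 gave 17, no minimum 98, 3-fold 16, and leaving out a library 45 to 54. Of these 55 counts under alternatives, 24 were within 1.5 times of the reported number and 31 were not. A pseudocount of 5 lowered the median log2 ratios of *set-32* over wild type, the double mutant, the triple mutant and *hrde-1* to 1.11, 1.09, 0.91 and 1.23, from 1.55, 1.795, 1.39 and 1.85. No median changed sign. No paired analysis was possible because each genotype had 1 library. Read numbers under 10 limit 11 of the genes.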

Other observations

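M199.9, which had 9.94 RPKM in *set-32* and 1.53 in the triple mutant, lies between *clec-190* and *col-135*. *clec-190*, a C-type lectin gene, had 29.7 RPKM in *set-32* against 5.43 in wild type, 13.4 and 27.2 in the double and triple mutants and 9.46 in *hrde-1*. *col-135*, a collagen gene, had 38.1 RPKM in *set-32* against 21.7 in wild type, 6.29 and 3.32 in the double and triple mutants and 5.60 in *hrde-1*. Of the 47 neighbours of the 31 genes with a mean of at least 1 RPKM, 15 (31.9%) were highest in *set-32*. Among models that passed the exclusions this share was 19.3%, but the neighbours had not gone through them and include sperm-class genes and *clec-190*. Of the 15, 5 belong to the nspa, nspc or pud families of the genes they adjoin and may share reads with them. The 2 neighbours named were picked once their values were known.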
